A study of Mus musculus with 13 samples.

Results

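A set of 4 genes that are best known from striated muscle and brown fat were followed in gluteal white adipose tissue (WAT), the fat pad under the skin over the hip: *Cox6a2*, *Cox7a1*, *Cox8b* and *Chchd10*. They were found as the rows of the raw count table that map to these names, and all 4 passed the filter on low counts, among 34419 genes in the table and 17779 tested. The set was chosen with the levels of these genes in these libraries already known, so the values at the 2 housing temperatures are given as a description, with no test. What was tested is how each gene moved with *Acta1*, skeletal muscle alpha-actin, among mice of the same housing temperature. The set was named for its muscle isoforms and the levels were known here too, so these tests also describe these mice.

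The study compared male C57BL/6J mice kept since birth at 22°C (n = 7), which is cool for a mouse, with mice kept at 29°C (n = 6), which is near thermoneutrality, all taken at an age of 13 weeks. All were bred in the same kind of thermal chamber, were housed singly with little bedding, and had the hair of the rear of the body removed after weaning. One RNA-seq library was made from total RNA of the gluteal WAT of each mouse, and mice are numbered here by replicate within a temperature. The tissue is a whole depot of mixed cells, so fewer cells of a type and less RNA per cell cannot be told apart.

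Cytochrome c oxidase, or complex IV, is the last complex of the respiratory chain and passes electrons to oxygen. The core subunits are encoded by the mitochondrial genome and the others by nuclear genes. Several of the nuclear subunits come as a pair of isoforms, a ubiquitous or liver-type form and a form of heart, skeletal muscle or brown fat: *Cox6a1* and *Cox6a2*, *Cox7a2* and *Cox7a1*, *Cox8a* and *Cox8b*. *Chchd10* encodes a small protein of the mitochondrial intermembrane space that is abundant in heart and skeletal muscle, associates with the cristae and has the ubiquitous *Chchd2* as its close relative. *Cox7a1* and *Cox8b* are also widely used as markers of brown and beige fat.

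The 13 libraries held between 22356637 and 25245785 counts. A value of 3 counts, used as the floor of detection, equalled between 0.113 and 0.158 CPM (counts per 1000000 counts of the scaled library), and intervals and floors of this kind cover counting error only. Counts on 31 skeletal muscle genes made up from 0.111% to 9.46% of a 22°C library and from 0.0176% to 0.893% of a 29°C library. The muscle genes were therefore unevenly spread within each temperature as well as between them. *Acta1* (ENSMUSG00000031972.6) had a lowest value of 173, a median of 1314 and a highest value of 14968 CPM at 22°C, and 72.0, 395 and 1584 CPM at 29°C. Mice 1 and 7 at 22°C had the highest *Acta1*, 14968 and 13549 CPM. At 29°C, mouse 6 had 81.1 CPM of *Acta1* but 0.463 CPM of the muscle creatine kinase gene *Ckm* and 0.758 CPM of the fast myosin gene *Myh4*. Mouse 2 at 29°C had less *Acta1*, 72.0 CPM, but 21.9 CPM of *Ckm* and 31.9 CPM of *Myh4*. At its low end *Acta1* thus did not keep step with these muscle genes, which limits it as a measure of muscle RNA. The totals also fell into a lower cluster, made up of 22°C mice 1 to 5, and a higher cluster of 22°C mice 6 and 7 and all mice at 29°C, and the source of this split is not stated.

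*Cox6a2* (ENSMUSG00000030785.9, chromosome 7) encodes the heart and skeletal muscle form of subunit 6A, a small membrane-spanning subunit at the dimer interface of the enzyme. Its lowest, median and highest values were 5.43, 54.5 and 534 CPM at 22°C and 0.211, 12.0 and 43.0 CPM at 29°C. The highest values were those of 22°C mice 7 (534 CPM) and 1 (465 CPM), the same mice that led for *Acta1*, and the lowest was that of 29°C mouse 6, which rested on 5 counts. The groups overlapped. At 22°C the mean was 173 ± 228 CPM (SD, n = 7), against 17.97 ± 18.9 CPM (SD, n = 6) at 29°C. The log2 fold change was 3.26 (SE 1.29, edgeR).

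*Cox7a1* (ENSMUSG00000074218.4, chromosome 7), is the striated muscle and brown fat form of subunit 7A. It had a lowest value of 1.62, a median of 6.97 and a highest value of 42.8 CPM at 22°C, and 0.849, 2.28 and 6.14 CPM at 29°C. Again mice 7 and 1 stood highest at 22°C, with 42.8 and 30.0 CPM, and mouse 1 at 29°C. The groups overlapped. The 22°C mean of 13.4 ± 16.3 CPM (SD, n = 7) stood against a 29°C mean of 2.80 ± 1.92 CPM (SD, n = 6), with a log2 fold change of 2.26 (SE 0.81, edgeR).

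*Cox8b* (ENSMUSG00000025488.10, chromosome 7), the muscle and brown fat form of subunit 8, a very small subunit, differed in pattern. The lowest, median and highest values were 21.2, 28.7 and 111 CPM at 22°C and 4.79, 8.31 and 19.7 CPM at 29°C. Every mouse at 22°C lay above every mouse at 29°C. Its mean was 50.1 ± 40.9 CPM (SD, n = 7) against 10.4 ± 6.11 CPM (SD, n = 6), and its log2 fold change was 2.27 (SE 0.53, edgeR).

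*Chchd10* (ENSMUSG00000049422.8, chromosome 10) was separated in the same way. Its values were 54.8, 74.8 and 284 CPM (lowest, median and highest) at 22°C and 11.8, 23.7 and 41.0 CPM at 29°C. No mouse at 29°C reached the lowest value at 22°C. Averages were 123 ± 98.7 CPM (SD, n = 7) in the cool mice against 23.8 ± 11.02 CPM (SD, n = 6) in the warm ones, with a log2 fold change of 2.37 (SE 0.50, edgeR).

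Thus *Cox8b* and *Chchd10* were without overlap between the temperatures and *Cox6a2* and *Cox7a1* were not. Of all genes tested, 0.495% (88 of 17779) had every mouse at 22°C above every mouse at 29°C, and 1.94% (345 of 17779) passed P-adj below 0.1 in either direction with edgeR. Since the set was chosen on this contrast, nothing is read from its share.

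**Figure D1:**
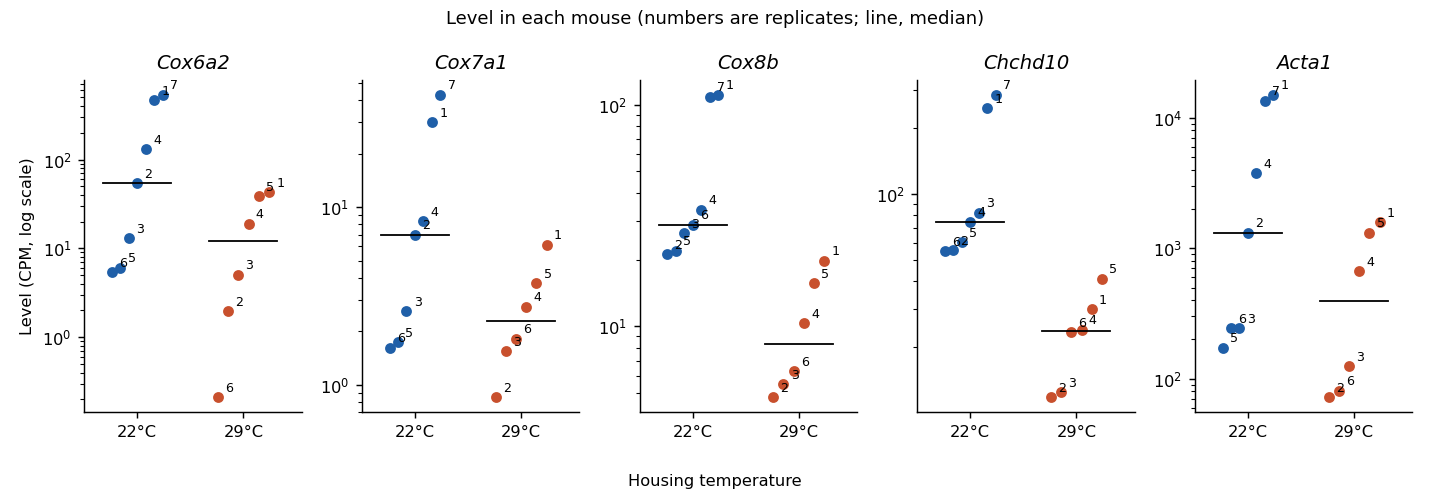
Level of the 4 genes and of *Acta1* in each mouse, in CPM on a log axis, by housing temperature; each point is a mouse, the number beside it is its replicate and the black line is the group median. The groups overlap for *Cox6a2*, *Cox7a1* and *Acta1* and do not for *Cox8b* and *Chchd10*, and 22°C mice 1 and 7 are the highest at 22°C in every panel.

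The spread within the 22°C group showed how far the genes followed *Acta1*, used here as the measure of muscle RNA. Mice 2 to 6 at 22°C covered a 21.8-fold range of *Acta1*, from 173 to 3775 CPM. Over the same 5 mice *Cox6a2* covered a 23.98-fold range, from 5.43 to 130 CPM, and *Cox7a1* a 5.16-fold range, from 1.62 to 8.35 CPM. By contrast, *Cox8b* ran from 21.2 to 33.6 CPM, a 1.58-fold range, and *Chchd10* from 54.8 to 82.1 CPM, a 1.498-fold range. *Cox8b* and *Chchd10* were thus nearly level among these 5 mice, and were several times higher in mice 1 and 7, which had 111 and 109 CPM of *Cox8b* and 247 and 284 CPM of *Chchd10*.

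Expressed per 1000 CPM of *Acta1*, *Cox6a2* stayed within 22.3 to 53.2 at 22°C, and at 29°C within 2.596 to 40.7, the lowest being mouse 6. *Cox7a1* ran from 2.004 to 10.5 at 22°C and from 2.82 to 22.3 at 29°C. At 22°C the ratios of the other members covered a wider range. *Cox8b* ran from 7.39 to 127 at 22°C and from 11.8 to 77.4 at 29°C, and *Chchd10* from 16.5 to 350 at 22°C and from 18.9 to 289 at 29°C.

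To measure this over all mice, the log2 level of every gene was fitted on log2 *Acta1* with housing temperature in the model, so that the slope reflects differences between mice housed alike. A slope of 1 means that a gene doubled as *Acta1* doubled, and 0 that it did not move with it. *Cox6a2* had a slope of 1.01 (SE 0.07; P-adj = 4.78e-07, edgeR), which was close to that of the muscle genes themselves. *Cox7a1* had a slope of 0.61 (SE 0.05; P-adj = 3.72e-06, edgeR). For *Cox8b* it was 0.35 (SE 0.04; P-adj = 0.000168, edgeR) and for *Chchd10* 0.30 (SE 0.05; P-adj = 0.00355, edgeR). Of all genes tested, 6.66% (1184 of 17778) had a positive slope that passed and 8.47% (1505 of 17778) passed in either direction. Since the 4 were chosen as muscle and brown fat genes with their levels known, nothing is read from all 4 passing.

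Each of the 4 slopes passed in all 13 fits that left out 1 mouse, and with the cluster of totals as a term (from 0.29 to 1.02; P-adj from 1.56e-06 to 0.00755, edgeR). With the replicate number as a block, given at the end, those of *Cox8b* and *Chchd10* did not pass, but that block takes 22°C mouse 7 out of the estimates. With *Ckm* in place of *Acta1*, that of *Chchd10* did not pass. The *Chchd10* slope rested on 22°C mice 1 and 7: without both it was 0.16 (SE 0.07; P-adj = 0.470, edgeR), while *Cox8b* kept 0.26 (SE 0.06; P-adj = 0.0745), *Cox7a1* 0.49 (P-adj = 0.000709) and *Cox6a2* 1.04 (P-adj = 0.0002), an alternative chosen after the data were seen. Within the mice at 22°C alone, all 4 slopes passed, with 0.99 for *Cox6a2*, 0.68 for *Cox7a1*, 0.33 for *Cox8b* and 0.31 for *Chchd10* (P-adj from 6.62e-06 to 0.0287, edgeR). Within the mice at 29°C alone, *Cox8b* passed with 0.40 (P-adj = 0.0153), *Cox7a1* had 0.45 (P-adj = 0.130) and *Chchd10* 0.27 (P-adj = 0.714), and *Cox6a2* did not pass the filter on low counts there. The slopes at the 2 temperatures were not told apart for any of the 4 (P-adj from 0.624 to 0.969 for the interaction, edgeR). Before adjustment over all genes, the *Cox7a1* slope was steeper at 22°C by 0.23 (SE 0.10, unadjusted p = 0.0398, edgeR), so agreement between the temperatures is not claimed.

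**Figure D2:**
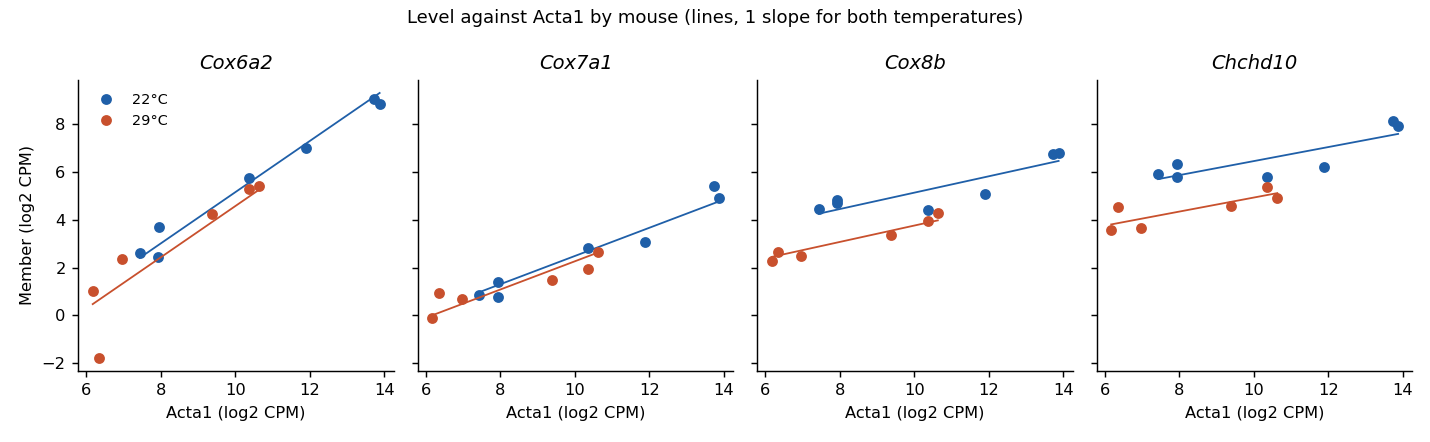
Log2 CPM of each gene against log2 CPM of *Acta1*, with a point for each mouse coloured by housing temperature and lines that share 1 slope and differ in height between temperatures. The 2 lines nearly meet for *Cox6a2* and *Cox7a1*, and the 22°C line lies above the 29°C line for *Cox8b* and *Chchd10*.

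Whether the slopes differed from each other was tested by an exact permutation test (two-sided) in which *Acta1* was permuted among mice of the same temperature, over 10 pairs of genes that were picked after the data were seen. The slope of *Cox6a2* exceeded that of *Cox7a1* by 0.48 (SE 0.15; P-adj = 0.000686, exact permutation), that of *Cox8b* by 0.73 (SE 0.14; P-adj = 0.000477, exact permutation) and that of *Chchd10* by 0.78 (SE 0.15; P-adj = 0.000365, exact permutation). *Cox7a1* in turn exceeded *Cox8b* by 0.25 (SE 0.07; P-adj = 0.0198, exact permutation) and *Chchd10* by 0.30 (SE 0.06; P-adj = 0.00516, exact permutation). *Cox8b* and *Chchd10* were not told apart, with a difference of 0.05 (SE 0.04; P-adj = 0.196, exact permutation). Without 22°C mouse 6 that last difference was 0.07 (P-adj = 0.0322, exact permutation). Since the genes and the pairs were chosen with the levels in these libraries known, the order of the slopes is a description of these mice.

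Each member also followed *Acta1* more steeply than its ubiquitous relative. The members were chosen as muscle and brown fat forms with their levels known, which made this likely, so these differences too are a description. The difference was 1.13 (SE 0.13; P-adj = 7.58e-05, exact permutation) for *Cox6a2* and *Cox6a1*, 0.60 (SE 0.05; P-adj = 4.96e-05, exact permutation) for *Cox7a1* and *Cox7a2*, 0.41 (SE 0.05; P-adj = 0.000289, exact permutation) for *Cox8b* and *Cox8a*, and 0.31 (SE 0.06; P-adj = 0.0011, exact permutation) for *Chchd10* and *Chchd2*. The slopes of these 4 relatives on *Acta1* lay between -0.06 and 0.00 in the same edgeR fit. Of them only *Cox8a* passed, at -0.06 (SE 0.02; P-adj = 0.0964, edgeR), and it did so in 3 of 13 fits that left out 1 mouse. The 30 skeletal muscle genes tested had slopes between 0.62 and 1.24, with a median of 1.04, and all passed.

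**Figure D3:**
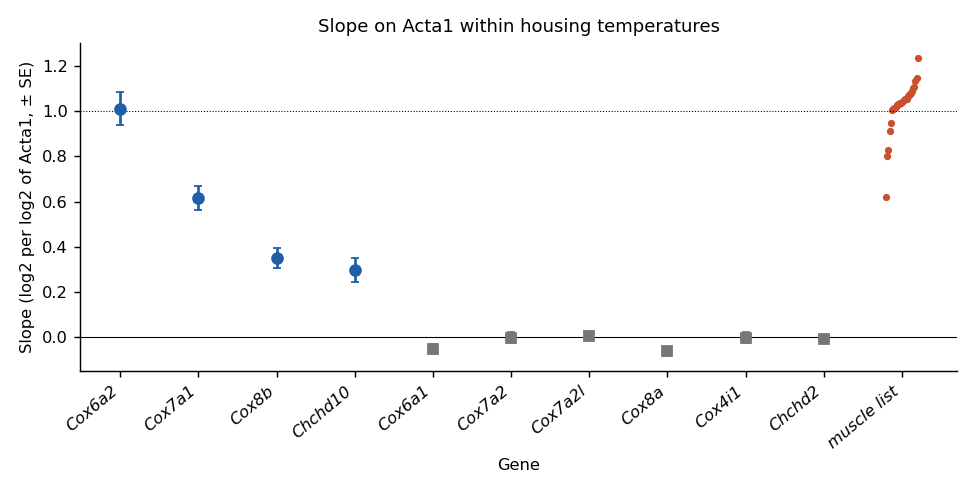
Slope on log2 *Acta1* within housing temperatures (log2 per log2; bars, SE) for the 4 genes (circles), for 6 ubiquitous relatives or neighbours (squares) and for the 30 skeletal muscle genes (small points, no bars); the solid line marks 0 and the dotted line 1. *Cox6a2*, at 1.01, lies among the muscle genes, *Cox7a1* at 0.61, and *Cox8b* and *Chchd10* at 0.35 and 0.30 lie between them and the relatives.

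Holding *Acta1* equal changed the temperature differences unequally, and these values too are a description. With log2 *Acta1* as a covariate the log2 fold change of *Cox6a2* went from 3.26 to 0.43 (SE 0.33) and that of *Cox7a1* from 2.26 to 0.24 (SE 0.29). Those of *Cox8b* and *Chchd10* were 1.44 (SE 0.23) and 1.56 (SE 0.29). With a muscle score, the mean log2 level of the muscle list, in place of *Acta1*, the values were -0.07 (SE 0.25) for *Cox6a2*, 0.11 (SE 0.54) for *Cox7a1*, 1.28 (SE 0.31) for *Cox8b* and 1.504 (SE 0.41) for *Chchd10*. These fits assume a straight line on the log2 scale, whose form was not tested. At 22°C the values of *Cox8b* and *Chchd10* departed from 1 line. Over mice 2 to 6 *Acta1* covered a 21.8-fold range, *Cox8b* 1.58-fold and *Chchd10* 1.498-fold. Both genes were several times higher in mice 1 and 7. Their slopes and adjusted differences thus average a nearly level part and a steeper part. Leaving out 22°C mice 1 and 7, with no covariate, gave 1.22 (SE 1.09) for *Cox6a2*, 0.60 (SE 0.56) for *Cox7a1*, 1.34 (SE 0.35) for *Cox8b* and 1.46 (SE 0.29) for *Chchd10*. A term for the cluster of library totals gave log2 fold changes of 3.91, 2.98, 2.73 and 2.83 in the order *Cox6a2*, *Cox7a1*, *Cox8b* and *Chchd10*, and the lower cluster holds no mouse at 29°C. Within the higher cluster, the 22°C mice 6 and 7 had 28.7 and 109 CPM of *Cox8b* and 54.8 and 284 CPM of *Chchd10*, above the highest 29°C values of 19.7 and 41.0 CPM. The same mice had 5.43 and 534 CPM of *Cox6a2* and 1.62 and 42.8 CPM of *Cox7a1*, of which the values of mouse 6 lay within the 29°C ranges. The part of muscle RNA in the temperature differences was not tested.

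**Figure D4:**
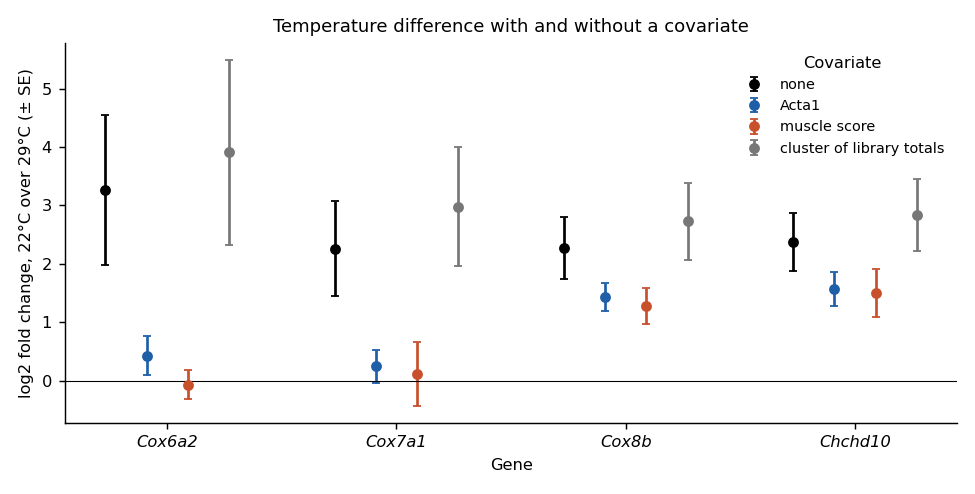
Log2 fold change, 22°C over 29°C, of each gene (points; bars, SE) with no covariate and with *Acta1*, the muscle score or the cluster of library totals in the model. With *Acta1* or the muscle score *Cox6a2* and *Cox7a1* lie between -0.07 and 0.43 and *Cox8b* and *Chchd10* between 1.28 and 1.56.

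Compared per length of annotated exons, the tissue isoforms reached large shares of their pairs in a few mice. *Cox6a2* made up 65.7% and 73.7% of the *Cox6a1* and *Cox6a2* pair in 22°C mice 1 and 7, and 37.4% in mouse 4. In the other 4 mice at 22°C it was between 1.90% and 17.3%, and at 29°C between 0.0679% and 16.0%, with a median of 5.26%. *Cox7a1* ran from 2.94% to 47.7% of its pair with *Cox7a2* at 22°C, with a median of 12.7%, and from 2.04% to 11.4% at 29°C, with a median of 5.45%. *Cox8b* was more even: it made up between 9.11% and 10.6% of its pair with *Cox8a* in 22°C mice 2, 3, 5 and 6, 16.5% in mouse 4, and 38.4% and 42.1% in mice 1 and 7. At 29°C its share lay between 2.59% and 9.12%, with a median of 4.22%. The highest share at 29°C (9.120%) was just above the lowest at 22°C (9.108%), so the groups overlapped slightly on this measure. These shares set CPM per kb of a member against that of its pair, and could change with the annotation, which is not stated for the counts.

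**Figure D5:**
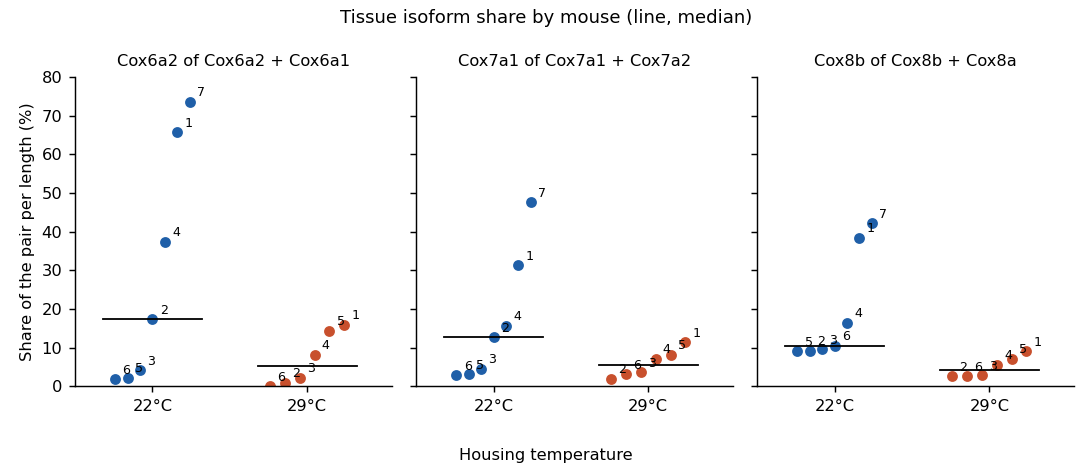
Share of each isoform pair held by the muscle or brown fat form, per length of exons, in each mouse by housing temperature; numbers are replicates and black lines medians. The highest shares at 22°C are those of mice 7 and 1 in all 3 pairs, and *Cox8b* in the other 22°C mice lies between 9.11% and 16.5%.

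On the same scale the place of *Cox6a2* in the members' order depended on the mouse. Medians at 22°C were 80.1 CPM per kb for *Cox6a2*, 79.7 for *Cox8b*, 47.5 for *Chchd10* and 13.0 for *Cox7a1*. At 29°C they were 23.1 for *Cox8b*, 17.6 for *Cox6a2*, 15.1 for *Chchd10* and 4.26 for *Cox7a1*. The ranges of *Cox6a2*, *Cox8b* and *Chchd10* overlapped at both temperatures. Within every mouse, however, *Cox8b* lay above *Chchd10* by these exon lengths, while *Cox6a2* lay above both in some mice and below both in others. At 22°C *Cox6a2* spanned 7.99 to 786 CPM per kb and *Cox8b* 58.9 to 307.

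Across all 13 libraries, the genes whose log2 levels were most like those of *Cox6a2* were *Klhl31*, *Eef1a2*, *Art1*, *Tnnc2* and *Trdn* (Pearson r from 0.994 to 0.996), of which *Tnnc2* is the fast troponin C and *Trdn* the triadin of the sarcoplasmic reticulum. Those most like *Cox7a1* were *Srl*, *Tcea3*, *Gm8424*, *Tmem52* and *Adssl1* (r from 0.976 to 0.982), of which *Srl* is sarcalumenin and *Adssl1* the muscle adenylosuccinate synthase. For *Cox8b* the nearest gene of all was *Chchd10* (r = 0.975), followed by *Gm867*, *Mmp11*, *Kansl2* and *Pgp* (r from 0.952 to 0.953). For *Chchd10* they included *Mmp11* (r = 0.979), *Cox8b* (r = 0.975), *Pgp* (r = 0.957) and *Gm867* (r = 0.955). *Cox8b* and *Chchd10* were less like *Cox6a2*, with r = 0.83 and r = 0.76. All these values describe 13 libraries that share the muscle RNA and temperature gradients, and carry no p-value.

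The nearness of *Mmp11*, a matrix metalloproteinase gene, and *Gm867* to *Chchd10* has a limit. In GENCODE M21 *Chchd10* lies on the plus strand and shares 155 of its 1575 exon bases with *Mmp11* and 25 with *Gm867*, both on the minus strand. *Cox6a2* likewise shares 70 of 680 exon bases with *Itgad* on the opposite strand. Whether the counting used strand is not stated, so reads in the shared bases cannot be told apart. *Mmp11* lay between 40.5 and 168 CPM in the 22°C mice and between 13.8 and 33.9 CPM in the 29°C mice.

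Since *Cox8b* and *Chchd10* moved together, the 250 bases before the annotated start of each are shown, with those of *Cox7a1* for comparison, from RefSeq on GRCm38.p6, each 5′ to 3′ on the strand of its gene. *Cox8b* lies at chr7:140900447-140900696, minus strand, *Chchd10* at chr10:75932880-75933129, plus strand and *Cox7a1* at chr7:30183921-30184170, plus strand. Capitals mark matches to the E-box CANNTG, the letters that myogenic and other basic helix-loop-helix factors bind.
Cox8b: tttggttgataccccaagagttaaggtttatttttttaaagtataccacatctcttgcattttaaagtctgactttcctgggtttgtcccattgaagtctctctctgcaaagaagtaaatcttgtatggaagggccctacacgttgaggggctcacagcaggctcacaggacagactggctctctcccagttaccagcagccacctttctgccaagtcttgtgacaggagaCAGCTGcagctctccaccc
Chchd10: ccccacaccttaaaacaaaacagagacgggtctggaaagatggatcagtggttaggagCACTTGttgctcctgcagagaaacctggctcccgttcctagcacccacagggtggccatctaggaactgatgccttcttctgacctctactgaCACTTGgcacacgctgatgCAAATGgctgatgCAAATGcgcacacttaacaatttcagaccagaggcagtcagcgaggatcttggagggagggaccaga
Cox7a1: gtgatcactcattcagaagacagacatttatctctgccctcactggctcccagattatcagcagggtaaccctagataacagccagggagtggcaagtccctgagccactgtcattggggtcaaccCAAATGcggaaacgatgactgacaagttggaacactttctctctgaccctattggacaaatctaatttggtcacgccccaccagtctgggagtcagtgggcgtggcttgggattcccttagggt
The stretch of *Cox8b* held 1 match, which is the CAGCTG form and begins 19 bases before the start. That of *Chchd10* held 4, beginning 192, 99, 80 and 67 bases before it, and that of *Cox7a1* held 1, beginning 124 bases before it. At least 1 CANNTG occurred in 66.2% and at least 1 CAGCTG in 13.0% of the 32841 stretches of this length in the RefSeq table. Of the ubiquitous relatives, *Cox7a2* and *Cox8a* also held 1 CANNTG each and *Cox6a1* held 0. In the stretches of *Cox8b*, *Chchd10* and *Cox7a1* no match on either strand was found to AAGGTCA (the core bound by estrogen-related receptors), CATTCC (MCAT) or TATAAA. These occurred in 4.08%, 12.6% and 12.4% of all stretches. A match of letters is a description and not a binding site.

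The other genes of complex IV, 42 nuclear and mitochondrial subunits and assembly factors, moved little beside the 4. Of these, 36 were higher and 6 lower in the cool mice, where 9167 of all genes were higher and 8612 lower, and the median of their log2 fold changes was 0.12, against 0.01 over all genes. None passed with edgeR, and 8 of 42 had an unadjusted p under 0.05, as did 18.5% of all genes. DESeq2 called 2 of 42, where it called 10.2% of all genes (1676 of 16388): *Cox5a* (0.60; P-adj = 0.0819) and *Cox6c* (0.36; P-adj = 0.0927). The ubiquitous partners had log2 fold changes of 0.10 for *Cox6a1*, 0.27 for *Cox7a2*, 0.05 for *Cox8a* and 0.11 for *Chchd2* (P-adj from 0.213 to 0.856, edgeR). On *Acta1* the 42 slopes had a median of 0.02 and ran from -0.06 to 0.09. The members' slopes of 0.30 to 1.01 all lay above this range.

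Of 11 genes of the cristae and of the relatives of *Chchd10*, 9 were higher at 22°C and none passed (edgeR; 1 of 11 with an unadjusted p under 0.05, against 18.5% of all genes). On *Acta1*, where 8.47% of all genes passed, 2 of 11 did: the cristae gene *Apoo* with a slope of 0.16 (P-adj = 0.0966, edgeR) and *Chchd6* with -0.06 (P-adj = 0.0754, edgeR). Of 10 regulators of oxidative and muscle genes, all were higher at 22°C and none passed (edgeR; 5 of 10 with an unadjusted p under 0.05, against 18.5% of all genes). On *Acta1* 4 of 10 slopes passed, against 8.47% of all genes, those of *Mef2c* (0.45; P-adj = 5.96e-05), *Esrrg* (0.38; P-adj = 0.0453), *Mef2d* (0.11; P-adj = 0.00508) and *Mef2a* (0.08; P-adj = 0.0242), which encode muscle transcription factors and the estrogen-related receptor gamma. *Esrrg* was near the floor, with 0.211 to 0.704 CPM at 29°C and 0.077 CPM in 22°C mouse 6. It was highest in 22°C mice 1 and 7, at 7.85 and 3.84 CPM.

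Markers of the cell types in which the 4 genes are known were examined beside them. All 31 skeletal muscle genes had higher fitted levels at 22°C (median of the log2 fold changes, 3.26), and none passed (edgeR; 24 with an unadjusted p under 0.05, against 18.5% of all genes). The heart genes *Nppa* and *Myl7* were at or near 0, with at most 0.170 and 0.126 CPM in any library, *Myh6* reached 3.64 CPM and *Tnnt2* 2.69 CPM. The other 2 of the 6 heart genes were detected in every library, *Myl4* between 8.90 and 15.5 CPM and *Tnni3* between 0.527 and 2.15 CPM, and neither passed between the temperatures (edgeR). Of 13 brown and beige fat markers 10 were tested, and 6 were higher and 4 lower at 22°C. Against 1.94% of all genes, 2 of the 10 passed: *Cidea*, a lipid droplet gene (2.51; P-adj = 0.0199, edgeR), and *Otop1* (2.92; P-adj = 0.0596, edgeR). An unadjusted p under 0.05 (edgeR) was found for 7 of the 10, against 18.5% of all genes. These 7 included *Dio2*, which was higher (2.17), and *Lhx8* (-0.61) and *Tnfrsf9* (-0.71), which were lower. *Ucp1*, the defining gene of brown fat, had 13 counts in all and was at 0 in 10 of 13 libraries. *Cidea* did not follow *Acta1*, with a slope of -0.02 (P-adj = 0.945, edgeR), whereas *Cpt1b*, the carnitine palmitoyltransferase shared by muscle and brown fat, had a slope of 0.57 (P-adj = 8.19e-07, edgeR). The part of brown or beige fat cells in the levels of *Cox8b*, *Chchd10* and *Cox7a1* was not tested. The 8 markers of mature adipocytes were detected in every library, with *Adipoq* between 1599 and 3094 CPM, and of these *Lep* fell by 0.78 on the log2 scale at 22°C (P-adj = 0.0564, edgeR).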

How the data were processed

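Counts per gene and mouse were deposited by the authors as raw counts; per the labels' processing notes, reads were aligned to GRCm39 with STAR 2.7.5a and counted with featureCounts, and the annotation and strand setting are not given in the sources used here. A deposited table of rlog values was not used. Genes were named by their identifiers (34006 of 34419 matched), and exon lengths come from GENCODE M21 (GRCm38). Counts were filtered with filterByExpr (17779 genes) and normalized by TMM. CPM are counts per 1000000 effective counts, and log2 CPM have a prior count of 2. Models were fitted over all genes with the quasi-likelihood test of edgeR 4.0.16 (R 4.3.3): temperature, and temperature plus log2 Acta1. P-values were adjusted by Benjamini-Hochberg over all genes (P-adj) and called below 0.1. Slopes of gene pairs were compared on log2 CPM by enumerating all 3628800 permutations of Acta1 within temperatures. The edgeR fits were tested on simulated data. Alternatives were DESeq2 1.42.0, other scalings, filters and covariates, a replicate block, and leaving out mice.

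Each library is 1 mouse, and groups come from the labels. No 2 libraries were duplicates. The 4 genes, the gene lists and the tests were chosen with earlier results of these data known. Genes other than the members were named by these rules: the ubiquitous relatives, every list gene that passed, defining markers, and the 5 genes with the highest Pearson r to each member, of which 1 is not reported here. Where isoforms have near-identical pseudogenes, counts are uncertain.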

Additional observations from a re-analysis of the deposited data

Results flagged for a closer look

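The 22 groups of values examined were each a gene in the mice of 1 temperature. In 2 of them the gap of a mouse to the nearest other, divided by the range of the group, exceeded Dixon's critical value. Chance gives about 1 in 20. Both were ubiquitous relatives of the members rather than the members themselves. *Cox6a1* was highest in 29°C mouse 6, at 8.32 log2 CPM with the next mouse at 7.89; this is the mouse with the lowest *Cox6a2*. *Cox7a2l* was highest in 22°C mouse 6, at 6.67 log2 CPM with the next mouse at 6.53.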

How the results depend on the processing

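The log2 fold changes of the 4 genes stayed positive except for *Cox6a2* with the muscle score (-0.071). *Cox7a1* moved to 0.11 with that score, 0.24 with *Acta1* and 0.60 without 22°C mice 1 and 7, *Cox6a2* to 0.43 with *Acta1*, *Cox8b* to 1.28 with the score and *Chchd10* to 1.46 without those mice. Leaving out 1 mouse gave 2.64 to 3.73 for *Cox6a2*, 1.60 to 2.65 for *Cox7a1*, 1.95 to 2.56 for *Cox8b* and 2.01 to 2.595 for *Chchd10*. All genes called between temperatures, 345, became 1676 with DESeq2, 42 with no filter, 4 with the cluster of totals, 84 with *Acta1*, 41 with the muscle score, 40 at P-adj below 0.05, and 32 (without 29°C mouse 3) to 652 (without 22°C mouse 6). The complex IV genes called, 0, became 2 with DESeq2. The *Chchd10* slope did not pass with *Ckm* in place of *Acta1* (0.16; P-adj = 0.2395), at 29°C alone (0.27) or without 22°C mice 1 and 7 (0.16), and that of *Cox7a1* did not at 29°C alone (0.45). Genes with a called slope, 1505, became 959 with the muscle score, 441 with *Ckm*, 70 at 29°C alone, 422 without 22°C mice 1 and 7, and 837 (without 22°C mouse 7) to 1592. The complex IV gene with a called slope, 1, became 3 at 22°C alone (*Cox5a*, *Cox7b* and *Cox8a*), 0 to 2 with 1 mouse left out, and 0 with DESeq2 size factors, no filter, the cluster of totals, the muscle score, *Ckm*, 29°C alone or without 22°C mice 1 and 7. The slope difference between *Cox8b* and *Chchd10* passed with the muscle score (0.064; P-adj = 0.0664, exact permutation) and *Ckm* (0.055; P-adj = 0.0947, exact permutation), and ran from 0.024 to 0.074 with 1 mouse left out; the other 9 passed in each of the 18 alternatives run for them (5 of scaling, measure and samples, and 13 that left out 1 mouse), which did not include the replicate block. Near 0, *Cox8a* ran from -0.0031 to 0.11 (log2 fold change), and the slopes of *Cox7a2* from -0.032 to 0.010 and of *Cox4i1* from -0.019 to 0.0081 with 1 mouse left out; at 22°C alone the slopes were 0.0052 for *Cox7a2*, -0.0056 for *Cox7a2l* and 0.00037 for *Cox4i1*. The causes were not tested.

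The replicate numbers were not taken as pairs, since nothing in the labels ties them and 1 of 6 same-numbered pairs correlated at 0.051, under the 0.1 asked of every pair; the other 5 correlated over 0.1 (up to 0.51), and 4 of 6 correlated best with their own number, a hint from the data only. With the replicate block, 214 genes were called between temperatures, 1 of complex IV (*Cox6c*), and 189 genes had a called slope, 0 of complex IV. The block left slopes of 0.25 for *Cox8b* (P-adj = 0.402) and 0.26 for *Chchd10* (P-adj = 1.0), and 0.034 for *Cox4i1*, and those of *Cox6a2* and *Cox7a1* still passed. It gave log2 fold changes of 2.47 (SE 0.97) for *Cox6a2*, 1.12 (SE 0.53) for *Cox7a1*, 1.88 (SE 0.25) for *Cox8b* and 1.90 (SE 0.33) for *Chchd10*.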
